A study of Drosophila melanogaster with 3 samples.

Results

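To describe how overexpression of the Hippo kinase altered the transcripts of the larval fat body, the library of Dcg > Hpo animals was compared gene by gene with that of the Dcg/+ control, over the whole range of abundance. Of 16509 gene rows, the 9157 genes with 50 or more counts in either library were used, and 6739 of them reached 50 in both. Control animals carried the Gal4 driver Dcg alone (Dcg/+), and Dcg > Hpo animals carried the same driver together with an Hpo transgene that it switches on. One further library, of Dcg > Hpo-RNAi animals, in which the driver expresses an RNAi construct against hpo, is given beside some values. The strain, age and sex of the animals are not given in the labels. Dcg-Gal4 is used as a fat body driver, so that other organs of the same animals are not its intended targets. RNA came from pooled larval fat bodies according to the study's methods, whereas a deposited protocol names adult heads. As each genotype had 1 library, genotypes could not be tested against each other.

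Hippo (hpo) is a serine/threonine kinase at the head of a cascade that phosphorylates Warts, which in turn keeps the coactivator Yorkie out of the nucleus. Yorkie, with DNA-binding partners such as Scalloped, promotes growth and cell survival, so that active Hippo restrains tissue size. The fat body combines the roles of liver and adipose tissue: it stores lipid and glycogen, secretes storage proteins and lipoproteins into the hemolymph, detoxifies, and answers infection with secreted peptides.

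Sequencing gave 21918672 counts for the control, 23227940 for Dcg > Hpo and 23524682 for Dcg > Hpo-RNAi. Counts were scaled by these totals, and a ratio is the share in Dcg > Hpo over that in Dcg/+, with an exact Clopper-Pearson 95% interval of the split of the counts. Higher means a ratio of 2 or more, and lower a ratio of 0.5 or less, each with an interval that excludes 1. These intervals cover counting error and no difference between animals, dissections or library preparations. hpo itself went from 289 counts to 11568, and stood at 182 in the RNAi library. Its ratio was 37.8 (33.6 to 42.6), which goes with the label. hpo lies on chromosome 2R of dm6, and its 3′ end overlaps the gene Rep of the other strand. Strand handling in the counting is not given in the sources used here.

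Genes with lower counts in Dcg > Hpo outnumbered those with higher counts. Of the 9157 genes, 1427 (15.6%) were higher and 1714 (18.7%) lower, and 6016 were neither. Scaling by TMM, which sets the bulk of genes to no change, gave 1201 higher (13.1%) and 1897 lower (20.7%), and moved log2 ratios by -0.16, so that the median log2 ratio went from 0.12 to -0.05. The balance turned once a gene had to be seen in both libraries: of the 6739 genes with 50 or more counts in each, 711 were higher (10.6%) and 341 lower (5.06%), or 533 and 501 with TMM.

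The genes called lower were mostly genes that had nearly vanished. Of the 1478 genes that reached 50 counts in Dcg/+ and not in Dcg > Hpo, 1373 (92.9%) were lower, and their filter left them little room to be otherwise. Their median was 98 counts in Dcg/+ and 4 in Dcg > Hpo, and 458 of them had no count at all in Dcg > Hpo. In the Dcg > Hpo-RNAi library 47.3% of these genes lay within 1.25-fold of the control, near the 46.3% of all 9157 genes. The 940 genes that reached 50 counts in Dcg > Hpo alone went from a median of 26 counts to 83, and 34 of them were at 0 in Dcg/+. Of these 940 genes 716 (76.2%) were higher and none lower, with as one-sided a filter. Large differences were thus more frequent downward, with 1014 genes 16-fold or more lower and 149 genes 16-fold or more higher. These are plain ratios of library shares, so that a gene at 0 in 1 library passes any fold. Of the 500 genes with a log2 ratio (counts scaled to a common total, plus 1) under -6, 79.4% carried a CG number as symbol in the deposited table, some of them since named. Of the 6039 genes between -1 and 1, 42.9% did.

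**Figure D1:**
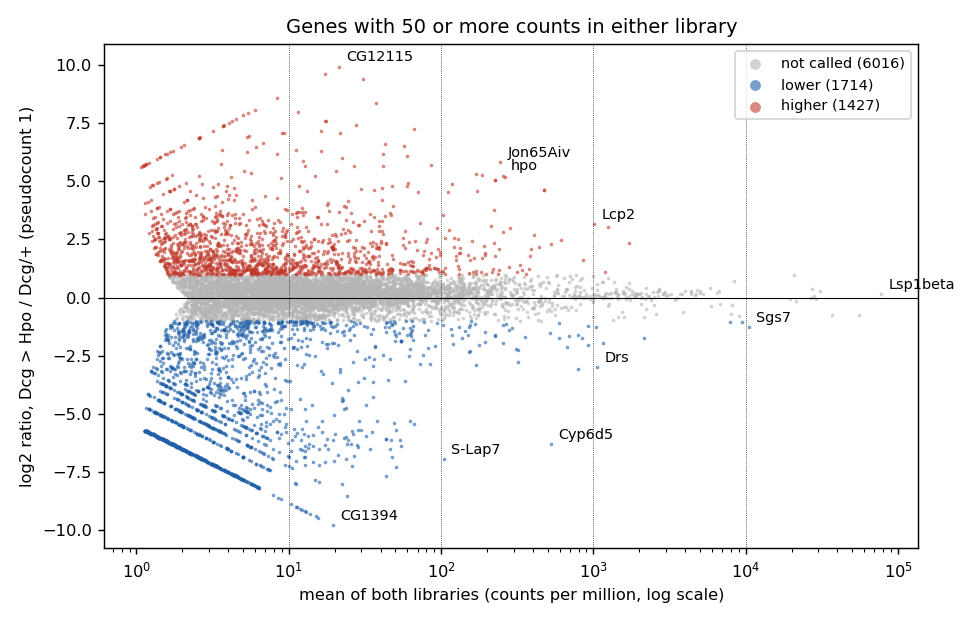
Log2 ratio of Dcg > Hpo to Dcg/+ against the mean abundance of both libraries in CPM (counts scaled to a common library size, log axis), 1 point per gene with 50 or more counts in either library, with dotted lines at the limits of the abundance classes. The 1714 lower genes reach far down at low abundance, with lines of points where Dcg > Hpo has 0 or a few counts, while the most abundant genes stay near 0.

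Genes were then divided into 5 classes by the mean of both libraries in CPM, a gene's counts scaled to a common library size. In the class under 10 CPM, 929 of 4867 genes were higher and 1411 lower. Between 10 and 100 CPM, 426 of 3529 were higher and 255 lower, and between 100 and 1000 CPM, 68 of 629 were higher and 41 lower. Above these, 4 of 120 genes between 1000 and 10000 CPM were higher and 6 lower, and of the 12 genes at 10000 CPM or more none was higher and 1 was lower. Lower calls thus exceeded higher ones in the rarest class, which held 2.31% of the counts in Dcg/+ and 2.08% in Dcg > Hpo. The class of a gene that is nearly lost depends on which library sets it. With classes from the Dcg > Hpo-RNAi library, which the ratio does not use, lower calls exceeded higher ones in the next classes as well: under 10 CPM 1135 genes were higher and 1179 lower, between 10 and 100 CPM 267 and 461, and between 100 and 1000 CPM 25 and 68. Counting precision differed between the classes, since the upper bound of the interval was 1.69 times the lower bound for the median gene under 10 CPM and 1.01 times in the most abundant class. With 50 or more counts in both libraries, the rarest class had 252 genes higher and 134 lower of 2584. With TMM, the class from 100 to 1000 CPM had 54 genes in each direction, and that from 10 to 100 CPM had 344 higher and 333 lower.

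**Figure D2:**
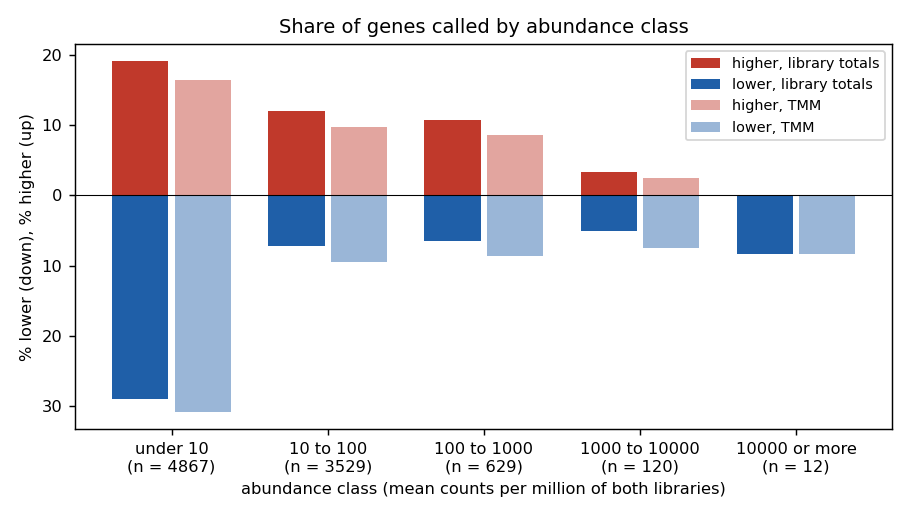
Percent of genes higher (upward bars) and lower (downward bars) in each of the 5 abundance classes, with library totals (full colour) and with TMM (pale), n being the genes in a class. Lower genes reach 29.0% under 10 CPM and 7.23% between 10 and 100 CPM.

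Of the 12 genes at 10000 CPM or more, 5 were on the list of secreted fat body proteins, with ratios from 0.901 to 1.11. Lsp1beta, a subunit of the larval storage hexamer LSP1, went from 1612401 counts to 1895967, a ratio of 1.11 that became 0.990 with TMM. Lsp2, the other larval hexamerin, had 588033 and 618473 counts (0.992), Lsp1alpha 596945 and 669750 (1.06), and Fbp2 493710 and 471472 (0.901). Rfabg (now apolpp), which encodes the apolipophorin that carries lipid in the hemolymph, had 140158 and 240244 counts, which gave a ratio of 1.62 (1.61 to 1.63). Fbp1, a receptor through which the fat body takes LSP1 back up, lay on the other side of 1, from 249683 to 154923 counts (0.586, 0.582 to 0.589). Over the 9 measured members of the fat body list, 1 was higher (Apoltp, a lipid transfer particle protein, 354 to 1285 counts) and none lower, and the list held 18.8% of the counts in Dcg/+ and 19.4% in Dcg > Hpo. Transcripts that define the labelled tissue were thus abundant in both libraries. The median log2 ratio of this list, 0.08, changed sign to -0.08 with TMM.
Past the storage proteins, the noncoding transcript CR34335 (X, 3545750 to 3546110) had the largest gain of the library, from 306918 to 642801 counts, or 1.40% to 2.77% of all counts. Its ratio was 1.98 (1.97 to 1.98). A pair of neighbours on 2L, 680 bases long each, carried the largest losses. CG42586 went from 1523870 to 967538 counts (0.599) and CG31775 from 1014833 to 646304 (0.601), and CG34166, which lies beside them and is of like abundance, had 645226 and 665182 (0.973). Reads may be shared between CG42586 and CG31775. CG8157 (196587 and 167163 counts, 0.802) also ranked among the largest losses, and the odorant-binding protein gene Obp99b (615443 and 784986, 1.20) and the ribosomal protein gene RpLP1 (109765 and 154533, 1.33) among the largest gains, with none of the 3 called. CR41602, an 18S rRNA pseudogene, took 2.39% and 3.07% of the counts, so that some of each library came from ribosomal RNA.
In all, 15.5% of the counts would have to change gene to turn the Dcg/+ library into the Dcg > Hpo library, compared with 15.1% between Dcg/+ and Dcg > Hpo-RNAi. The 10 genes with the largest fall carried 53.0% of the fall, and the 10 with the largest rise 30.6% of the rise. Genes called higher reached 5.98% of the counts in Dcg > Hpo, a gain of 4.47 percentage points, and genes called lower went from 8.82% to 2.91%.

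Among genes at 1000 CPM or more the larval cuticle proteins had the highest ratios. Lcp1 went from 12189 counts in Dcg/+ to 66505 in Dcg > Hpo (5.15, 5.05 to 5.25), with 3286 in Dcg > Hpo-RNAi. Lcp4 went from 5905 to 51328 (8.20) and Lcp2 from 4466 to 42353 (8.95), with 1436 and 1272 in Dcg > Hpo-RNAi. These genes, which lie together on 2R, encode chitin-binding proteins that the epidermis lays down in the cuticle. Of 22 measured cuticle genes 15 were higher (68.2%) and 3 lower (13.6%), against 15.6% and 18.7% of all genes. Lcp3, which belongs to the same 2R group, was among the lower ones, with 2789 and 404 counts (0.137).
The glue proteins of the salivary gland lay on the other side. Sgs7 went from 324115 counts to 141868, beside 3253 in Dcg > Hpo-RNAi, a ratio of 0.413 (0.410 to 0.416). Sgs8 (0.480) and Sgs3 (0.487) were lower as well, Sgs5 stood at 0.614, and CG7587 (Sgs5bis) went from 31000 to 3929 (0.120). CG7606, which lies on 3R beside Sgs5, went from 72238 to 22987, beside 497 in Dcg > Hpo-RNAi (0.300). Genes of the same gland went opposite ways: ng1, ng2 and ng3, which encode other secreted proteins of larval salivary glands, went from 6 to 1276 counts, from 71 to 2123 and from 990 to 8858. All 14 measured salivary gland genes together held 5.15% of the counts in Dcg/+ and 2.57% in Dcg > Hpo, with 5 higher (35.7%) and 4 lower (28.6%). Neither gland nor epidermis belongs to the fat body, and in bulk samples fewer cells of a type cannot be told apart from less RNA per cell.
Among defence and stress proteins, Drs, the antifungal peptide drosomycin, went from 41052 to 5471 counts (0.126, 0.122 to 0.129). Drs was lower in Dcg > Hpo-RNAi as well, at 19840 counts. Hsp23, a small heat shock protein, went from 40261 to 11201 (0.263). CG16712, a member of the immune-induced list, rose from 9257 to 30013 (3.06). Of that list's 13 measured members 11 were higher (84.6%, against 15.6% of all genes) and none lower. Some, such as IM1 (10 to 97), reached 50 counts in Dcg > Hpo alone, and 76.2% of all genes that did so were higher.

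**Figure D3:**
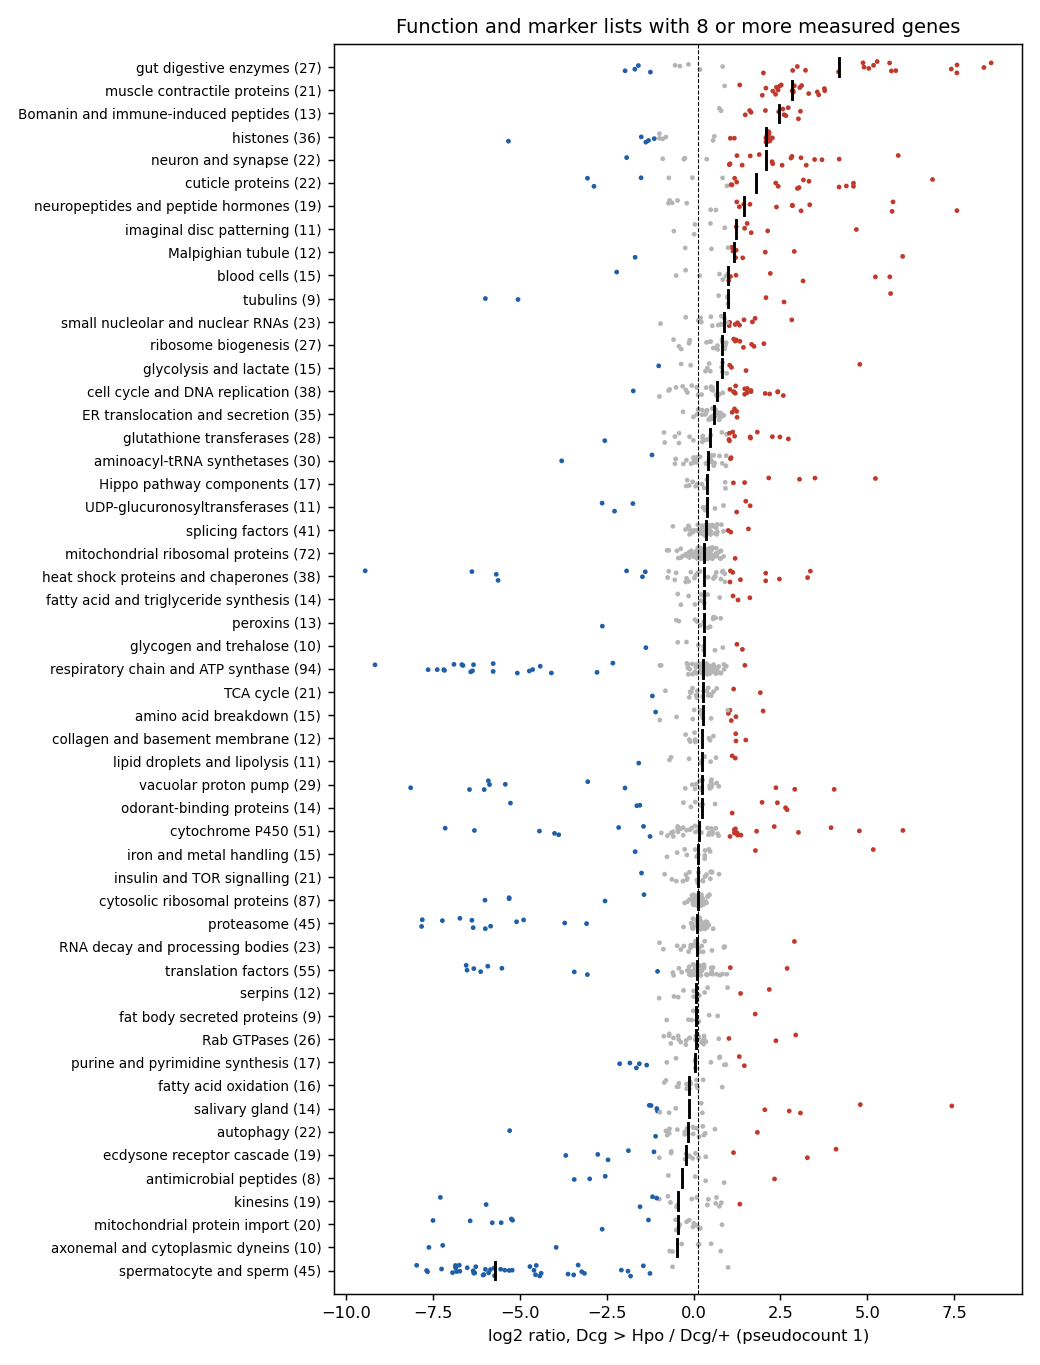
Log2 ratio of each measured gene in the lists with 8 or more measured genes (number in brackets), red for higher, blue for lower and grey for neither, with the list median as a black bar and the median of all 9157 genes as a dashed line. Lists of proteasome, respiratory chain and translation factor genes show a dense group of grey points near 0 and a separate tail of blue points under -4.

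Genes of metabolism moved in smaller groups, and most of those named here were chosen after their values were seen. In the list of purine and pyrimidine synthesis 5 of 17 measured genes were lower (29.4%, against 18.7% of all genes) and 2 higher. The 5 lower ones all act in the making of purines. ade3, which encodes an enzyme of several early steps of the pathway, went from 23808 counts to 5768, with 22514 in Dcg > Hpo-RNAi, a ratio of 0.229. CG11089, the enzyme of the last steps to inosine monophosphate, went from 23116 to 7818 (0.319), ade2 from 2052 to 736 (0.338), the adenylosuccinate lyase AdSL from 2233 to 663 (0.280), and ras, inosine monophosphate dehydrogenase, from 3662 to 1521 (0.392). None of these was lower in Dcg > Hpo-RNAi by the same rule. AdSS, adenylosuccinate synthase, had 377 and 1102 counts (2.76), opposite to the others, and su(r), of pyrimidine breakdown, had 76 and 202 (2.51). With TMM the counts were the same, 2 higher and 5 lower.
ImpL3, the lactate dehydrogenase gene, had the highest ratio among glycolytic genes, from 91 counts to 2686 (27.9). It was at 126 in Dcg > Hpo-RNAi. PyK, pyruvate kinase, had 691 and 2086 counts (2.85), while Pgi (2.13) and Pglym78 (2.06) were higher with library totals and not with TMM. Pepck, the gluconeogenic enzyme, stood at 0.498, with 4630 and 2445 counts. Of the 15 measured genes of this list 4 were thus higher (26.7%, against 15.6% of all genes) and 1 lower, with a median log2 ratio of 0.81. Muscle genes, whose tissue is rich in glycolytic enzymes, rose in the same library, and their part in these values was not tested.
Both enzymes of glycogen turnover were higher, with glycogen phosphorylase GlyP at 258 and 726 counts (2.66) and glycogen synthase GlyS at 137 and 346 (2.38). kdn, citrate synthase, rose from 224 to 902, and the arginase gene arg from 680 to 2889 (4.01). None of the 16 measured genes of fatty acid oxidation was called in either direction (median log2 ratio -0.13), and 1 was lower with TMM. Thor, the translational repressor 4E-BP that insulin and TOR signalling hold down, went from 16921 to 6340 counts (0.354), and was the 1 called gene among 21 of that list. With TMM, Sesn (413 and 245 counts) was lower as well.
The metallothionein MtnA, which binds copper and other metals, rose from 3810 to 13858 counts (3.43), with 1008 in Dcg > Hpo-RNAi, and MtnB from 4 to 189.

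Detoxifying enzymes were mixed by family. Of 51 measured cytochrome P450 genes 15 were higher (29.4%) and 8 lower (15.7%), against 15.6% and 18.7% of all genes. Of 28 glutathione transferase genes 11 were higher (39.3%) and 1 lower, or 7 and 2 with TMM. Cyp6d5 showed the strongest fall of any gene between 100 and 1000 CPM apart from S-Lap7, from 22756 counts to 303 (0.0126, beside 3015 in Dcg > Hpo-RNAi). Cyp309a1 went from 4041 to 1795 (0.419), whereas it stood at 11361 in Dcg > Hpo-RNAi. On the higher side, Cyp4ad1 went from 60 to 1002 (15.8) and Cyp4g1, which oenocytes use to make cuticular hydrocarbons, from 4 to 143 (33.7). GstD1, the most abundant of the glutathione transferases called, went from 5169 to 11203 (2.05), and was not called with TMM. The strongest fall in that family was GstO1, from 299 to 53 (0.167).

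Genes for exporting proteins lay mostly above 1 in ratio, but few were called. Of 35 genes of translocation into the endoplasmic reticulum and secretion, 4 were higher (11.4%, compared with 15.6% of all genes) and none lower. Among them 33 had a log2 ratio above 0 (median 0.59, or 0.42 with TMM), as did 5186 of all 9157 genes. Gp93, the chaperone of the endoplasmic reticulum related to Hsp90, went from 1383 to 3489 counts (2.38), and Sec61gamma, a subunit of the translocation channel, from 2868 to 7178 (2.36). Of 27 genes of ribosome biogenesis 8 were higher (29.6%) and none lower. Nop60B, the pseudouridine synthase of ribosomal RNA, had 253 and 1093 counts (4.08), and nop5, of the box C/D particles, 153 and 544 (3.36). The ribosomal protein genes themselves changed little: of 87 measured cytosolic ones none was higher, 5 were lower, and together they took 16.5% and 18.4% of the counts. The median log2 ratio of these genes, 0.12, changed sign to -0.05 with TMM.
Among 38 genes of the cell cycle and DNA replication 16 were higher and 1 lower, against 15.6% and 18.7% of all genes. They included 5 genes of the replicative helicase, Mcm2 (17 to 113 counts, 6.27), Mcm6 (38 to 221, 5.49), Mcm3 (40 to 180, 4.25), Mcm7 (27 to 92, 3.22) and dpa (2.94). stg, the Cdc25 phosphatase that starts mitosis, had 82 and 470 counts (5.41), dap, a Cdk inhibitor, had 81 and 200 (2.33), and CycB, a mitotic cyclin, fell from 191 to 60 (0.296). Markers of imaginal discs, whose cells divide in larvae, were higher in 6 of 11 measured genes (summed level 0.00863% and 0.0161% of the counts), and their part in these values was not tested.

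Within the Hippo pathway itself, 6 of 17 measured genes were higher (35.3%, against 15.6% of all genes) and none lower. The 6 include hpo, which the transgene was made to raise. Among the others, ft, which encodes an upstream cadherin, had 9 and 118 counts (12.4), and 74 in Dcg > Hpo-RNAi. Also higher were dachs (d), the gene of an unconventional myosin that acts after ft, and fj (18 to 89, 4.67), a kinase that modifies the cadherin. The rest were sd (131 to 386, 2.78), the DNA-binding partner Scalloped, and ex (69 to 163, 2.23), which was not called with TMM. The core partners of the kinase were not called: sav had 310 and 289 counts, wts 434 and 543, mats 101 and 98, and yki 175 and 182. The disc markers just named, whose list also holds sd, moved with ft and fj in the same library, and their part was not tested.

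Genes of the ecdysone response, by which the steroid hormone times molting and metamorphosis, went both ways. The nuclear receptor Hr4 went from 785 to 64 counts (0.0769), Hr46 from 261 to 40 (0.145) and Eip75B from 8044 to 3865 (0.453). By contrast, ImpE1 rose from 12 to 132 and ImpE2 from 8 to 162, which the hormone induces in imaginal discs. ImpE2 stood higher still in Dcg > Hpo-RNAi, at 546 counts. ftz-f1, a nuclear receptor expressed when the pulse declines, had 119 and 281 counts (2.23). Over 19 measured genes 3 were higher (15.8%, as against 15.6% of all genes) and 5 lower (26.3%, as against 18.7%), or 2 and 6 with TMM.

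Genes that carry a relative's name were among those nearly lost. Many housekeeping complexes of the fly have second copies of a subunit gene, and several such copies are known to be expressed in the male germ line. In 29 pairs of measured genes, 1 was named as a copy of the other by the ending L, T or -like in its current symbol. Of the 29 copies 19 were lower in Dcg > Hpo, as were 18.7% of all genes, and none higher, and 11 had no count there. All 19 reached 50 counts in Dcg/+ and not in Dcg > Hpo, and 92.9% of all genes that did so were lower. Summed, these 19 copies went from 3408 counts to 41, while the RNAi library had 3814. None of their 18 parent genes was called, with ratios from 1.05 to 1.83. COX4L (CG10396), a copy of the cytochrome c oxidase subunit COX4, had 559, 0 and 687 counts, at least 197-fold lower than the control when 0 is set to 3 counts. RpL22-like had 184, 0 and 119 counts, at least 65.0-fold lower. The other 10 copies ranged from 0.509 to 1.87, among them RpL7-like and RpLP0-like, and COX5BL (154 to 83 counts) became lower with TMM.
The lists of whole complexes also held such second genes among their lower members, although the share of lower members was near the 18.7% of all genes in some of them. All 12 lower genes of the proteasome, out of 45 measured, carry an R or T suffix, such as Prosbeta2R2 (from 220 counts to 0) and Prosalpha4T2 (from 217 to 0), and none of the other 33 was called. Of 94 nuclear genes of the respiratory chain 20 were lower (21.3%) and 1 higher, yet the summed share of the list went from 0.652% to 0.875%. The 1 higher gene was Cyt-c-p, the somatic cytochrome c (110 to 326 counts), whereas the testis form Cyt-c-d fell from 318 to 1. Translation factors had 9 of 55 lower (16.4%), among them eIF4E-5 (531 to 5), eIF4E-4 (175 to 1), eIF4E-7 (58 to 0) and eIF4E-3 (326 to 31). For the vacuolar proton pump 8 of 29 were lower (27.6%), with Vha16-3 at 624 and 10 counts, while Vha16-1, the abundant form, had 7149 and 10815 (1.43). The pump also had 3 higher genes (10.3%, against 15.6% of all genes), of which Vha100-5 went from 27 to 222. Of the mitochondrial chaperones, Hsp60B (467 to 9), Hsp60C (680 to 0) and Hsp60D (80 to 0) were lower, and Hsp60 itself had 238 and 263 counts. The 5 lower ribosomal protein genes were RpS10a (304 to 4), RpL10Aa (150 to 3), RpL37b (337 to 8), RpS19b (314 to 56) and RpS5b (659 to 259), each a second gene of a protein whose other gene stayed near 1, as RpS10b did at 1.06 and RpS5a at 1.06. Even among tubulins, betaTub85D of the testis went from 1023 to 16, whereas betaTub56D, the general form, rose from 3240 to 14566 (4.24), and alphaTub85E from 34 to 1888 (52.4).

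**Figure D4:**
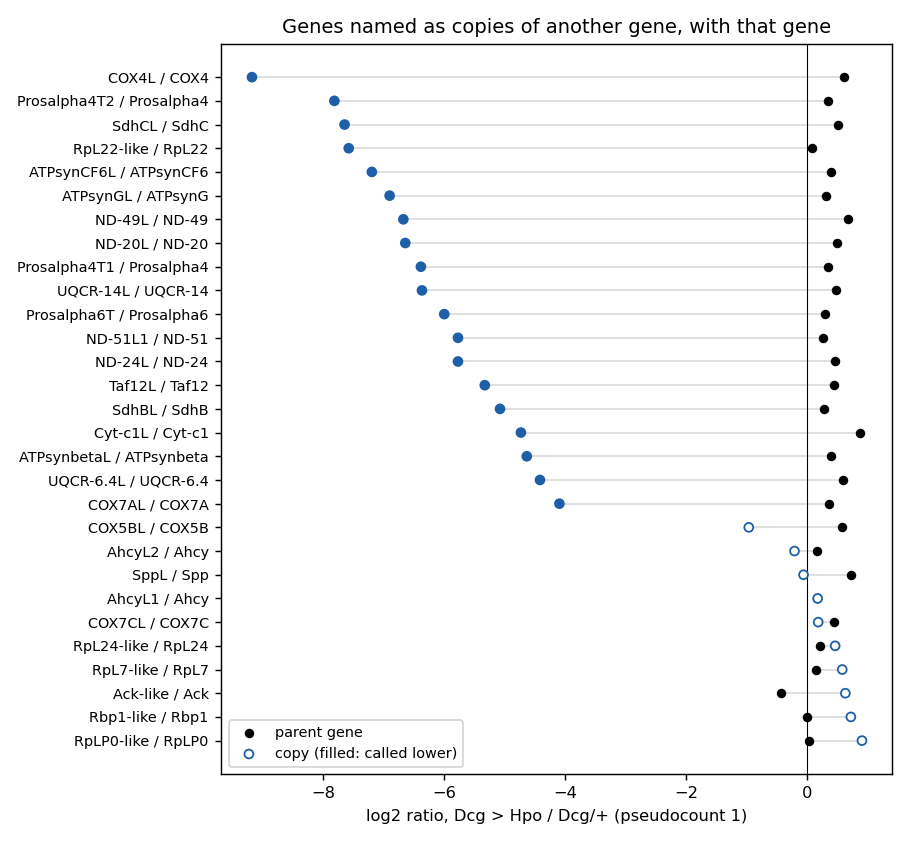
Log2 ratio of Dcg > Hpo to Dcg/+ for 29 genes named as copies of another gene (blue circles, filled where lower) and for the gene they are named after (black), joined by a line for each pair. The 19 filled circles lie under -4, and their parent genes lie between 0 and 1.

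Beside these genes moved the spermatocyte and sperm markers: 43 of 45 measured were lower (95.6%, against 18.7% of all genes) and none higher. All 54 members in the deposited table together fell from 0.148% to 0.0136% of the counts, with 0.166% in Dcg > Hpo-RNAi. Of the list's defining members, aly, nht, c-cup, Tektin-A, boly, hale, sunz and p-cup were at 0 in Dcg > Hpo. These passed the filter through Dcg/+ alone, and 92.9% of all genes that did so were lower. The 2 not lower were twe (0.655) and alphaTub84D (1.99), a tubulin of many tissues. Sex-linked transcripts differed too. roX1, a noncoding RNA of the male X chromosome, had 7467, 2514 and 3266 counts in the order Dcg/+, Dcg > Hpo, Dcg > Hpo-RNAi, roX2 had 28, 8 and 13, and Su(Ste):CR42415, from the Y-linked repeat family that silences Stellate, had 29, 0 and 36. Sxl, the switch gene of female development, had 1162, 2292 and 1773 counts, and its ratio of 1.86 was not called. Yp3, a yolk protein gene of females, went the other way from Sxl, with 1452, 122 and 3918 counts (0.0793), and Yp2 had 52, 62 and 37. The part of testis or of the sex of the larvae in the losses described above was not tested.
On the higher side stood markers of organs other than the fat body. Of 21 muscle genes 20 were higher (summed level 0.0313% and 0.210% of the counts), of 27 gut enzymes 18 higher and 4 lower (0.109% and 0.344%), of 22 neuron genes 17 higher and 1 lower (0.0341% and 0.0468%), of 12 Malpighian tubule genes 8 higher and 1 lower, and of 7 tracheal genes 5 higher. No measured muscle or neuron marker was at 0 in Dcg/+, whereas the gut genes zetaTry and LysE were. Uro, urate oxidase of the Malpighian tubule, had 14, 1027 and 0 counts in the same order (69.2), and TpnC47D, a muscle troponin C, had 28, 419 and 2. Blood cell markers, 15 measured, had 7 higher and 1 lower. Over all genes 15.6% were higher and 18.7% lower. Uro, TpnC47D, zetaTry and LysE reached 50 counts in Dcg > Hpo alone, and 76.2% of all genes that did so were higher. Leaving out the 200 measured genes of the marker lists took genes with a CG number only from 4347 to 4345. Their lower share, 27.3% with and without markers, could thus hardly change. That of named genes went from 10.2% to 9.32%.
Of these markers, a few were also among the genes at the ends of the range in each class. Under 10 CPM, the genes farthest from 1 were the gut marker LysE (0 to 389 counts), CG31267 (0 to 277) and CG1809 (0 to 251) on the higher side and CG34161 (389 to 0), CG18449 (373 to 0) and CR32835 (343 to 0) on the lower side. Between 10 and 100 CPM, CG12115 went from 0 to 991 (at least 312-fold higher), CG4367 from 1 to 1422 and CG32071 from 0 to 799, while CG1394 went from 852 to 0 (at least 301-fold lower), and no gene at either end of this class was on a marker list. CG14850 (Jig) had 657 counts in Dcg/+ and none in either other library. Between 100 and 1000 CPM the gut serine proteases Jon65Aiv (185 to 11143, 56.8) and Jon65Aiii (203 to 8419, 39.1) and CG8997 (181 to 7675, 40.0) stood beside the sperm aminopeptidase S-Lap7 (4520 to 38) at the other end.

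Genes with a CG number were 1186 of the 1714 lower genes. Of 4347 genes with a CG number in the deposited table, 587 were higher and 1186 lower, and their summed share went from 30.6% to 25.2% of the counts. Most of that difference lay in CG42586 and CG31775, neither of them called, at -2.79 and -1.85 percentage points. Among 4565 named genes 797 were higher and 465 lower. Of the CG genes, 1067 have since received a name, and 15.8% of these were lower, compared with 31.0% of the 3280 that still have none. Noncoding CR transcripts numbered 245, with 43 higher (17.6%) and 63 lower (25.7%), against 15.6% and 18.7% of all genes. Small nuclear RNA genes were higher in 6 of 14 (42.9%) and lower in none, and the small nuclear and nucleolar list had 9 of 23 higher (39.1%). Genes called lower were short, with a median span in the annotation of 1540 bases, compared with 3092.5 for genes called higher and 2362 for all measured genes.

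By chromosome, the fourth stood apart from the large arms. This small, largely heterochromatic chromosome had 69 measured genes, of which 17 were higher (24.6%) and 1 lower, and 62 had a log2 ratio above 0 (median 0.55, or 0.38 with TMM). Of all 9157 genes 5186 lay above 0 (median 0.12, or -0.05 with TMM), and on X 959 of 1469 did. Its higher genes included bt, the projectin of muscle (275 to 1577 counts, 5.41), CaMKII (149 to 635, 4.02) and the neuronal factor onecut (10 to 70, 6.61). The marker lists hold few genes of this chromosome, bt among them but neither CaMKII nor onecut. Without the listed genes 15 of 65 were higher, and the part of other organs was not tested. On the major arms the share of higher genes lay between 14.3% (3R) and 17.4% (X), and that of lower genes was least on X (15.4%) and greatest on 2L (381 of 1733 genes).

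**Figure D5:**
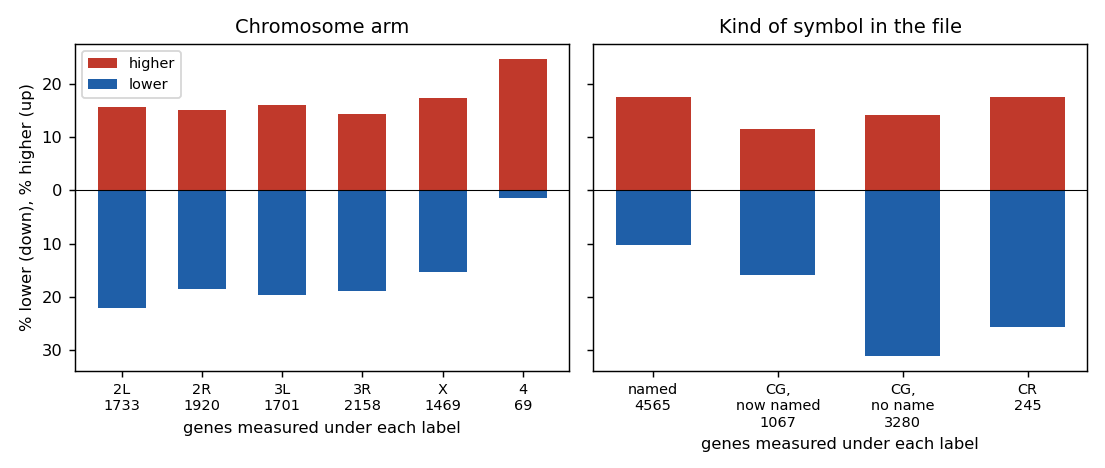
Percent of measured genes higher (up) and lower (down) by chromosome arm (left) and by kind of symbol in the deposited table (right), with the number of genes under each label. Chromosome 4 has 24.6% higher and 1.45% lower, and CG genes without a current name have 31.0% lower.

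Calls of the same direction lay side by side along the chromosomes. Of 1704 lower genes with a position, 1009 (59.2%) had a directly neighbouring measured gene that was also lower, while 31.9% of all 9050 such genes had a lower neighbour. For the 1412 higher genes the share was 47.9%, compared with 27.8% of all. Neighbours can be overlapping genes or copies of one gene, and 4840 of the 9157 measured genes overlap another annotated gene. Of 38 runs of 5 or more lower genes the longest held 20, on 2R from 23100057 to 23347768, from RpL37b to CG9863, with RpL22-like, Prosbeta5R1 and the kinesins Klp59C and Klp59D inside it. Its summed counts went from 3033 to 73, with 3662 in the RNAi library. A run of 9 on 3R, from 7346730 to 7423057, held the sperm genes Mst84Da to Mst84Dd and wa-cup and went from 7312 to 117. In a few runs the genes were not nearly lost. On 3L, 8 genes around Eip75B (17908143 to 18087320) went from 18552 to 8288, with a median log2 ratio of -1.35, and on 3R a run of 5 from tal-1A to Mst87F (13813109 to 13828008) went from 8443 to 2205 (median -1.88), where 4 rows had equal counts.
Of 10 runs of higher genes the longest held 8 and were of unlike make-up. On 2R (18382704 to 18390629) 8 genes of the immune-induced IM cluster went from 318 to 2100 counts, and 7 genes of the trypsin cluster on 2R (11346325 to 11357537) went from 1178 to 38832. A run on 3L (1203316 to 1228238) comprised 5 lysozyme genes and CG9119, with 166 and 5482 counts. On 3L the cuticle genes around Lcp65Ab1 (6123934 to 6150857) went from 1807 to 43103, and a run with Ilp2, Ilp3 and Ilp5 (9734012 to 9834345) from 113 to 1199. Copies in these clusters can share reads: Lcp65Ab1 and Lcp65Ab2 had equal counts in every library (826, 21288 and 155). Such equality was seen in 86 measured rows with at least 100 counts in some library, which fell into 35 sets and included 35 higher and 13 lower rows. Each such set may be 1 measurement counted several times, as for the histone genes, where 23 of the 25 higher rows were His2B copies.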

How the data were processed

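RNA of 3 genotypes was measured in 3 libraries, 1 for each, and Dcg > Hpo was compared with Dcg/+. The values are raw read counts per gene as deposited by the authors, whole numbers for 16509 rows, made by a service company with the QuantSeq kit, which sequences mRNAs from their 3′ end, on dm6 per the submitters' processing notes. The aligner, the counting tool and its strand setting are not given in the sources used here. Totals were 21918672 (Dcg/+), 23227940 (Dcg > Hpo) and 23524682 counts (Dcg > Hpo-RNAi), so that 50 counts stand for 2.28 and 2.15 CPM in the first 2.

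Genes with 50 or more counts in either library were used. Ratios of library shares carry exact Clopper-Pearson 95% intervals (scipy 1.17.1), which do not cover more than counting error, as reads without molecular identifiers can be copies of a single molecule. A gene was called at a ratio of 2 or 0.5 with an interval that excludes 1. A count of 0 was set to 3 counts per library for lower bounds of folds, and log2 ratios use scaled counts plus 1. TMM (edgeR 4.0.16) and median-of-ratios factors (DESeq2 1.42.0) were alternatives. Names, positions and spans came from RefSeq annotation of release 6 for 16279 rows (9050 of those measured), and 17 symbols on 37 rows were kept apart. On simulated counts with counting error alone, the calls recovered 4-fold changes put into genes expected at 50 or more counts in Dcg/+. Changes of 2-fold and genes that nearly vanish were not simulated.

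The comparison, the 62 gene lists (13 of them markers of cell types, 2 with no measured gene) and the rules were chosen with earlier results of these data known. Lists follow symbols, so that a member is what its name says. Named are the 3 called genes per class and direction whose nearer interval bound lies farthest from 1, the 10 genes per direction with the largest change in share, hpo, and, in each list, the 2 members that changed most, fewer in places. All other genes named were chosen after their values were seen.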

Additional observations from a re-analysis of the deposited data

How the results depend on the processing

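The balance of higher and lower genes depends on the filter and the scaling. Without a filter 2294 genes were higher and 2891 lower, with 10 counts in either library 2155 and 2702, and with 50 counts in both libraries 711 and 341. At a threshold of 1.5-fold 2427 genes were higher and 2234 lower, so that higher genes were then the more numerous, and at 4-fold 649 and 1308. TMM and median-of-ratios factors gave nearly the same counts, 1201 and 1203 higher and 1897 and 1894 lower, and turned the median log2 ratio from 0.12 to -0.0492 and -0.0486, whereas it was 0.18 among genes with 50 counts in both libraries. Asking for the whole interval past 2-fold left 1005 higher and 1489 lower. Among genes with 50 counts in both libraries, the class under 10 CPM had 252 higher and 134 lower, and 160 were lower between 10 and 100 CPM. Classes taken from the Dcg > Hpo-RNAi library gave 267 higher and 461 lower between 10 and 100 CPM, 25 and 68 between 100 and 1000 CPM, 0 higher between 1000 and 10000 CPM and 0 lower above, as Lcp1, Lcp2, Lcp4 and Sgs7 have fewer counts in that library. The moved share was 17.6% without the most abundant genes. The hpo ratio was 33.7 with TMM. Of 60 lists with 3 or more measured genes, 12 changed the sign of their median with TMM, among them cytochrome P450, proteasome and translation factors. No paired analysis was possible because each genotype has 1 library. The planned search of promoters for motifs was not run, as promoter sequences were not at hand. Depth limits the rarest class, where the interval of the median gene spans 1.69-fold, and no depth replaces a second library.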

Other observations

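Hormone genes were often higher in Dcg > Hpo. Of 46 neuropeptide and peptide hormone rows 19 were measured, of which 12 were higher (63.2%, against 15.6% of all genes) and none lower. Some, such as Ilp2 and Crz, reached 50 counts in Dcg > Hpo alone, and 76.2% of all genes that did so were higher. The median log2 ratio of the 19 genes was 1.44, or 1.28 with TMM. Among the higher genes were Nplp4 (252 counts in Dcg/+ and 1400 in Dcg > Hpo), Ilp2, an insulin-like peptide of brain neurons (0 and 196), and Crz, corazonin (5 and 53). These are made by neurons and endocrine cells, whose markers were higher in the same library, and their part was not tested. Of 6 prothoracic gland genes, 4 of the ecdysone synthesis pathway were higher, with phm at 0 and 172 counts and spok at 2 and 311, and sro, of the same pathway, was lower (1954 and 689). The import machinery of mitochondria had 8 lower genes out of 20 (40.0%, against 18.7% of all genes) and none higher. The lower ones included Tim13 (175 and 0), Tim17b1 (246 and 2) and tomboy20 (215 and 5), beside the losses of sperm genes, whose part was not tested. Heat shock proteins and chaperones had 9 higher (23.7%) and 7 lower (18.4%) of 38, against 15.6% and 18.7% of all genes. Hsp67Ba had 53 and 316 counts and Hsp26 1405 and 536. In amino acid breakdown 5 of 15 were higher (33.3%) and 1 lower (6.67%), or 2 and 2 with TMM. CG6188 (Gnmt), glycine N-methyltransferase, had 1718 and 4237 counts. Of 8 antimicrobial peptide genes 1 was higher (12.5%) and 3 lower (37.5%), against 15.6% and 18.7% of all genes. The higher one was Dro (30 and 164), and the lower ones were Dpt (1256 and 122) and Drsl5 (1265 and 229) beside Drs. Of 7 germ line genes 3 were lower (42.9%), vas, bgcn and blanks, and blanks went from 754 to 9.

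Of 72 mitochondrial ribosomal protein genes 1 was higher (1.39%) and none lower (median log2 ratio 0.31, or 0.14 with TMM). Of 41 splicing factors 3 were higher (7.32%) and none lower (median 0.37, or 0.20 with TMM). Both shares of higher genes lay under the 15.6% of all genes. Among 12 genes of collagen and the basement membrane 3 were higher and none lower, with vkg, a chain of collagen IV, at 1036 counts in Dcg/+ and 2546 in Dcg > Hpo (ratio 2.32). Of 22 autophagy genes 1 was higher and 2 lower, and the lower Atg8b, with 556 and 14 counts, is a second gene of Atg8. Of 30 aminoacyl-tRNA synthetase genes 2 were higher and 2 lower, 6.67% each, under the 15.6% and 18.7% of all genes.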
